A study of Mus musculus with 21 samples.

Results

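Expression of 10 feedback and target genes of Wnt signalling, Axin2, Nkd1, Rnf43, Znrf3, Notum, Wif1, Apcdd1, Lgr5, Ascl2 and Lef1, was examined in normal colon and colon tumours of mice with the wild-type App gene or the App NL-G-F knock-in. The genes were taken by name as known feedback regulators and targets of beta-catenin, by a rule that uses no measured level. The choice was made with earlier results of these data known. All 10 were among the 24062 genes counted, and all 10 were among the 15936 genes that passed the filter on low counts and were tested.

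Wnt ligands bind Frizzled and LRP receptors and thereby stop a complex of Apc, Axin, Gsk3 and casein kinase from marking beta-catenin for destruction. The beta-catenin that accumulates joins TCF and LEF proteins on DNA and switches on target genes, several of which encode inhibitors that feed back on the pathway. In the colon this signalling is strongest at the crypt base, where it maintains the stem cells, and most colorectal tumours carry mutations that keep it on.

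The mice were C57BL/6, either wild-type or carriers of the App NL-G-F knock-in, labelled KIKI, in which the gene of the amyloid precursor protein carries changes known from familial Alzheimer's disease. Tumours had been induced with AOM/DSS, that is the carcinogen azoxymethane together with dextran sulfate sodium, a compound that inflames the colon. The 21 libraries form 7 groups of 3, which are normal colon and tumour of wild-type males, normal colon and tumour of knock-in males, normal colon and tumour of wild-type females, and normal colon of knock-in females. Tumours of knock-in females were not analysed here. The labels name the normal libraries untreated, while the series text speaks of tissue beside tumours or of colon in which none had formed, so the treatment of the normal colon is uncertain. No ages are given, and nothing says that the libraries of a group came from separate animals, so the p-values measure only the spread between libraries.

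The libraries held 3414123 to 26174008 counts, and levels are given as CPM, the count relative to the scaled library size. A count of 3, taken as the floor, corresponded to at most 0.873 CPM. Each of the 7 groups had all 8 epithelial markers above 0, with summed levels between 5899 and 11022 CPM over the 21 libraries. Some libraries stood apart within their group. Wild-type male normal replicate 3 and knock-in male normal replicate 2 had the lowest value of their group for 10 of the 10 genes, and knock-in male tumour replicate 2 for 8 of the 10, with Lgr5 and Ascl2 as the exceptions. These libraries were kept in the fit. On the first principal component of log2 CPM (52.4% of the variance), these male normal libraries were at -69.1 and -46.6. The female normal libraries were at -78.2 to -54.5, the other male normal libraries at -17.3 to -3.39, and the tumours at 24.4 to 94.2. The summed level of the 10 genes was 339 and 388 CPM in these male normal libraries. It was 128.5 to 310 CPM in female normal colon and 1003.5 to 1519.9 CPM in the other male normal libraries.

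Over the 7 groups, the 10 genes had their 4 lowest mean levels in normal colon, in the same order of wild-type females, knock-in females, wild-type males and knock-in males. For 8 of the 10 genes the tumour groups followed as knock-in males, wild-type females and wild-type males. The exceptions were Lgr5, which was highest in wild-type female tumours and lowest among tumours in wild-type males, and Apcdd1, whose mean was higher in knock-in male than in wild-type female tumours. Neighbours in this order overlapped in 3 of 6 pairs for Axin2 and in 6 of 6 pairs for Lgr5, Lef1 and Wif1. The levels of wild-type and knock-in male normal colon overlapped for each of the 10 genes.

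**Figure D1:**
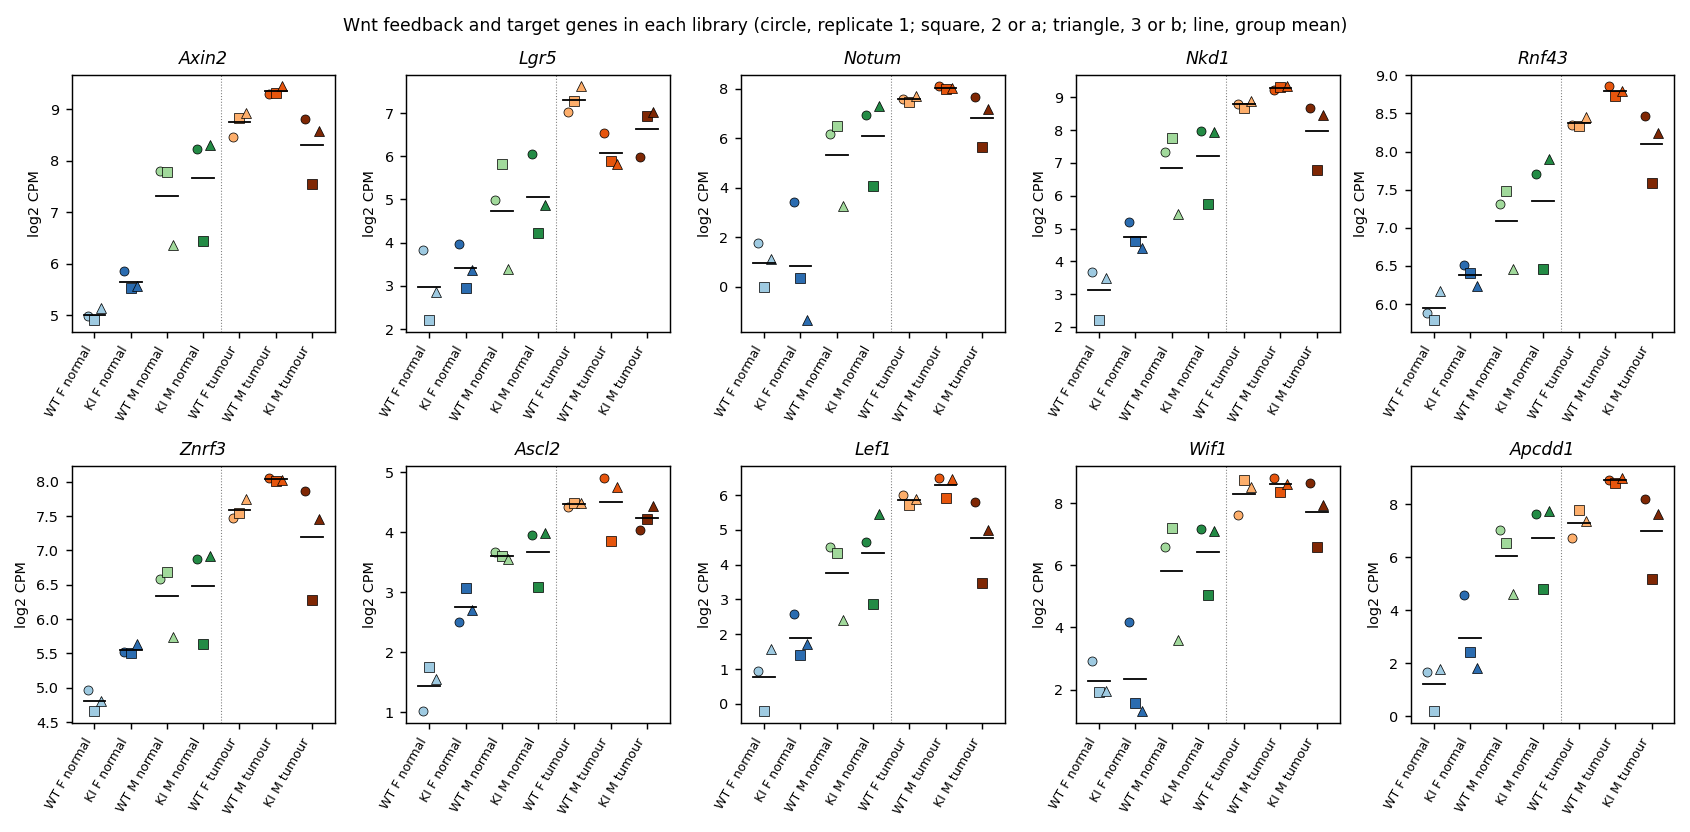
Level of each of the 10 genes in each library (log2 CPM, with a prior count of 2), by group, with a line at the group mean and symbols for replicates. In the 2 female normal groups the genes lay lowest, and the square of knock-in male normal colon (replicate 2) and the triangle of wild-type male normal colon (replicate 3) lay below the rest of their groups for 10 of 10 genes.

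Axin2, on chromosome 11 (chr11:108920349-108950783, plus strand, mm10), encodes a scaffold of the beta-catenin destruction complex and is the standard readout of the pathway. Its level was 31.6, 30.0 and 35.0 CPM in wild-type female normal colon and 353, 456 and 485 CPM in wild-type female tumours. In wild-type males it was 223, 219.9 and 82.0 CPM in normal colon and 627, 639 and 695 CPM in tumours. Tumours lay above normal colon without overlap in both sexes, and the normal colon of males lay above that of females. In knock-in males Axin2 was 300.0, 86.5 and 315 CPM in normal colon and 447, 187 and 380 CPM in tumours, so that 1 tumour library lay within the range of the normal colon. In knock-in female normal colon it was 58.2, 45.9 and 47.6 CPM, above each wild-type female normal library and below each male library. Of its exonic bases, 3.80% overlapped a gene on the other strand.

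The stretch directly before the annotated start of Axin2 is shown with a second window at an internal start of Lef1, because these genes are the pathway's readout and one of its DNA-binding factors, and because the Lef1 window was the one that held a TCF/LEF motif. The sequences are from RefSeq (GRCm38.p6, the assembly of mm10), and both genes lie on the plus strand.
Axin2, 250 bases before the start at chr11:108920099-108920348: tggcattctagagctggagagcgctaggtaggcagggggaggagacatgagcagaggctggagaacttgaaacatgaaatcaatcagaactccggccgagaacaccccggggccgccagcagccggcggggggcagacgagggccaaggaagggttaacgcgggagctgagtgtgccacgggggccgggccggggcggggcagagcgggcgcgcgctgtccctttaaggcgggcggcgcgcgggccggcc
Lef1, 250 bases before an internal start at chr3:131156044-131156293, with the motif in capitals: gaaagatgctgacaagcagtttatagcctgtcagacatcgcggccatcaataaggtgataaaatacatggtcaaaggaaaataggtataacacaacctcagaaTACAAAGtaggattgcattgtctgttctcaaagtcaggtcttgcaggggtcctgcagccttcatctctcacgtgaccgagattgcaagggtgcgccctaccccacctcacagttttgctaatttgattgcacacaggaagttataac
The search covered both strands for 4 forms of the motif. One was CTTTGAA, another read CTTTGAT, a further one was CTTTGTA, and the last was spelled CTTTGTT. It was run in windows from 250 bases before to 50 bases after each start. RefSeq windows were at hand for 6 of the 10 genes, Axin2, Nkd1, Rnf43, Ascl2, Lef1 and Wif1, which have 10 windows. The motif was in 1 of these 10 windows, as CTTTGTA on the minus strand beginning at position -147 from the start, and in 16.9% of all 32851 windows of the table. The Axin2 window had a GC content of 70.0% and 31 CG dinucleotides, against medians of 52.7% and 7 over all windows.

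Nkd1 (chr8:88521354-88594884, plus strand) encodes a protein that binds Dishevelled and dampens the signal inside the cell. Nkd1 was at 12.7, 4.46 and 11.1 CPM in wild-type female normal colon and at 442, 409 and 478 CPM in wild-type female tumours. In wild-type males it was at 161, 218 and 43.0 CPM in normal colon and at 603, 638 and 649 CPM in tumours. The tumour libraries of both sexes lay close together, while the normal libraries were spread over a 5.06-fold range in males. In knock-in males it was at 251, 53.0 and 248 CPM in normal colon and at 411, 109 and 352 CPM in tumours, with the second library of each group far below the other 2. In knock-in female normal colon it was at 36.4, 24.6 and 20.9 CPM.

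Rnf43 (chr11:87662722-87735539, plus strand) and Znrf3 (chr11:5276324-5444847, minus strand) encode related membrane ubiquitin ligases that remove Frizzled receptors from the cell surface. Rnf43 was at 58.5, 55.2 and 72.2 CPM in wild-type female normal colon and at 325, 322 and 351 CPM in wild-type female tumours. In wild-type males Rnf43 was at 159, 179 and 87.9 CPM in normal colon and at 463, 423 and 443 CPM in tumours, and in knock-in males at 209, 87.6 and 239 CPM and at 353, 192 and 303 CPM. Over the 21 libraries the SD of log2 CPM was 1.05 for Rnf43 and 1.15 for Znrf3, with Ascl2 (1.09) between them, and 1.59 or more for the other 7 genes, up to 3.09 for Notum. Neither gene was near the floor in any library. Znrf3 was between 25.1 and 31.0 CPM in wild-type female normal colon and between 177 and 215 CPM in wild-type female tumours. In wild-type males Znrf3 was between 53.2 and 103 CPM in normal colon and between 257 and 267 CPM in tumours, and in knock-in males between 49.7 and 121 CPM and between 77.4 and 233 CPM. Knock-in female normal colon had 75.1 to 90.7 CPM of Rnf43 and 45.2 to 49.4 CPM of Znrf3, in each case above the wild-type female normal libraries. The ratio of Rnf43 to Znrf3 raw counts was between 1.51 and 2.59 in all 21 libraries, and no pair among the 10 genes had closer profiles (root mean square difference of centred log2 CPM 0.20).

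Notum (chr11:120653788-120661175, minus strand) encodes a secreted enzyme that removes the lipid from Wnt ligands and so inactivates them. Notum was at 3.25, 0.836 and 2.01 CPM in wild-type female normal colon and at 192, 175 and 206 CPM in wild-type female tumours. In wild-type males it was at 71.6, 90.4 and 9.55 CPM in normal colon and at 275, 254 and 262 CPM in tumours. The tumours of each sex differed little among themselves, while the wild-type normal libraries of both sexes together ranged from 0.836 to 90.4 CPM. In knock-in males Notum was at 122, 16.6 and 159 CPM in normal colon and at 203, 49.4 and 145 CPM in tumours. Knock-in females had 10.7, 1.12 and 0.230 CPM of Notum in normal colon. The last of these values rests on 3 counts. Of the exonic bases of Notum, 38.1% overlapped genes on the other strand, and since the strand setting of the counting is not given in the sources used here, its counts are uncertain to that extent.

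Wif1 (chr10:121033960-121100650, plus strand) encodes a secreted protein that binds Wnt ligands, and Apcdd1, on chromosome 18, a membrane protein that inhibits the pathway at the receptors. Wif1 was at 7.36, 3.62 and 3.72 CPM in wild-type female normal colon and at 195, 431 and 364 CPM in wild-type female tumours. In wild-type males Wif1 was at 96.0, 147 and 12.0 CPM in normal colon and at 452, 328 and 394 CPM in tumours. Knock-in male tumours had 401, 95.1 and 244 CPM of Wif1, which overlapped both the tumours and the normal colon of wild-type males. Apcdd1 was at 3.001, 0.976 and 3.25 CPM in wild-type female normal colon and at 105, 221 and 166 CPM in wild-type female tumours. In wild-type males Apcdd1 was at 130.4, 93.9 and 24.1 CPM in normal colon and at 486, 446 and 516 CPM in tumours, and in knock-in males at 197, 27.8 and 212 CPM and at 291, 36.1 and 201 CPM. Knock-in female normal colon had 17.7, 2.81 and 2.30 CPM of Wif1 and 23.8, 5.28 and 3.37 CPM of Apcdd1, with replicate 1 the highest for both. The 3 wild-type male tumours had higher Apcdd1 than each of the other 18 libraries.

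Lgr5 (chr10:115450311-115587780, minus strand) encodes a receptor for R-spondins and marks the crypt base stem cells, and Ascl2 (chr7:142966829-142969264, minus strand) a transcription factor of the same cells. Lgr5 was at 14.1, 4.46 and 7.12 CPM in wild-type female normal colon and at 129, 156 and 197 CPM in wild-type female tumours. In wild-type males Lgr5 was at 31.3, 56.2 and 10.2 CPM in normal colon and at 93.2, 59.1 and 56.3 CPM in tumours, and the lowest tumour value was only just above the highest normal value. In knock-in males Lgr5 was at 66.4, 18.6 and 28.9 CPM in normal colon and at 62.6, 122 and 129 CPM in tumours. Knock-in female normal colon had 15.4, 7.53 and 10.1 CPM of Lgr5, of which the first lay within the range of the male normal libraries and the others below it. Ascl2 was low in every group, at 1.86, 3.21 and 2.79 CPM in wild-type female normal colon and at 21.2, 22.2 and 22.3 CPM in wild-type female tumours. In wild-type males Ascl2 was at 12.6, 12.0 and 11.5 CPM in normal colon and at 30.0, 14.3 and 26.9 CPM in tumours. In knock-in males Ascl2 was at 15.4, 8.29 and 15.6 CPM in normal colon and at 16.3, 18.4 and 21.6 CPM in tumours. It was the gene of the 10 whose 3 wild-type male normal libraries differed least, with a ratio of highest to lowest of 1.09.

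Lef1 (chr3:131110471-131224356, plus strand) encodes a factor that carries beta-catenin on DNA, and it is also expressed by T cells. Lef1 was at 1.78, 0.697 and 2.79 CPM in wild-type female normal colon and at 64.4, 52.3 and 58.8 CPM in wild-type female tumours. In wild-type males Lef1 was at 22.8, 19.99 and 5.17 CPM in normal colon and at 90.7, 59.7 and 88.7 CPM in tumours. Lef1 in knock-in males was at 25.0, 7.15 and 43.7 CPM in normal colon and at 55.9, 11.003 and 31.7 CPM in tumours, which lay below each wild-type male tumour. In knock-in female normal colon Lef1 was at 5.77, 2.47 and 3.14 CPM. The summed level of 8 T cell markers was between 7.28 and 32.5 CPM over the 21 libraries, none of the 8 was at 0 in any group, and no T cell marker passed the test in any of the 3 tumour comparisons. Of the exonic bases of Lef1, 13.75% overlapped a gene on the other strand.

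Per kilobase of merged exons, Wif1 had the highest mean level of the 10 genes in the 3 tumour groups and in both male normal groups, with 161 ± 25.5 CPM per kb (SD, n = 3) in the tumours of wild-type males. In both female normal groups Rnf43 was highest, at 9.45 ± 1.37 CPM per kb (SD, n = 3) in wild-type females, where Wif1 had 2.02 ± 0.88 CPM per kb (SD, n = 3).

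Tumours were compared with normal colon first in wild-type males. By the quasi-likelihood test of edgeR, with p-values adjusted over all tested genes (Benjamini-Hochberg), 7 of the 10 genes were higher at an adjusted p under 0.05 and 0 were lower, while 16.5% of all tested genes were called higher and 19.3% lower. The called genes were Axin2, Nkd1, Rnf43, Znrf3, Ascl2, Lef1 and Apcdd1. The median log2 fold change of the 10 genes was 2.03, against 0.0054 over all tested genes, and all 10 had tumour libraries above the normal libraries without overlap, as had 26% of all tested genes. On the log2 scale, Rnf43 rose by 1.64 (SE 0.30, adjusted p 0.000622), that is 3.12-fold, and Axin2 by 1.90 (SE 0.43, adjusted p 0.00294), that is 3.73-fold. Apcdd1 had the largest estimate, 2.54 (SE 0.87, adjusted p 0.0346), and Ascl2 the smallest, 1.00 (SE 0.26, adjusted p 0.00576). Wif1 with 2.20 (SE 0.84, adjusted p 0.0543), Notum with 2.20 (SE 0.92, adjusted p 0.0768) and Lgr5 with 1.09 (SE 0.56, adjusted p 0.140) did not pass. Without wild-type male normal replicate 3, the library with the lowest normal values, 4 of the genes were called, and Nkd1 (adjusted p 0.0570), Lef1 (0.0526) and Apcdd1 (0.129) were not. The Apcdd1 call was also lost without wild-type male normal replicate 2 or without any 1 of the 3 tumours (adjusted p 0.0551 to 0.0737).

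In wild-type females all 10 genes were higher in tumours than in normal colon, where 25% of all tested genes were called higher and 24% lower. The median log2 fold change was 4.60, against 0.0081 over all tested genes, and tumour and normal libraries did not overlap for any of the 10, as held for 29.9% of all genes in this direction and 28.6% in the other. The largest differences were 6.37 (SE 1.20, adjusted p 0.000463) for Notum, 6.02 (SE 1.11, adjusted p 0.000400) for Apcdd1 and 5.97 (SE 1.04, adjusted p 0.000245) for Wif1. Nkd1 followed with 5.51 (SE 0.74, adjusted p 2.37e-05) and Lef1 with 5.06 (SE 0.81, adjusted p 9.81e-05). Lgr5 rose by 4.15 (SE 0.63, adjusted p 6.91e-05), Axin2 by 3.75 (SE 0.47, adjusted p 9.07e-06) and Ascl2 by 3.12 (SE 0.30, adjusted p 3.77e-07). The ubiquitin ligases had the smallest changes, 2.78 (SE 0.37, adjusted p 1.27e-05) for Znrf3 and 2.43 (SE 0.31, adjusted p 9.85e-06) for Rnf43, which is still 5.38-fold. All 10 calls remained in each of the 12 alternative analyses and without each of the 6 libraries in turn.

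In knock-in males 0 of the 10 genes were called by edgeR, where 10.4% of all tested genes were called higher and 9.97% lower. The count at an unadjusted p under 0.05 was 3, and the counts by DESeq2 and limma voom were 1 and 0. All 10 estimates were above 0, with a median log2 fold change of 0.60 against 0.0066 over all tested genes. Lgr5 had the largest estimate, 1.47 (SE 0.56, adjusted p 0.0728), followed by Wif1 with 1.24 (SE 0.82, adjusted p 0.292). Axin2 was at 0.53 (SE 0.41, adjusted p 0.374), with a 95% interval from -0.35 to 1.41, and Rnf43 at 0.66 (SE 0.30, adjusted p 0.120). Ascl2 was the 1 gene whose libraries did not overlap, as was the case for 16.1% of all genes in this direction, and its estimate was 0.52 (SE 0.26, adjusted p 0.149). Notum was at 0.42 (SE 0.89, adjusted p 0.766), Lef1 at 0.38 (SE 0.62, adjusted p 0.690) and Apcdd1 at 0.27 (SE 0.83, adjusted p 0.842), and these 3 estimates turned negative when single libraries were left out. Without knock-in male normal replicate 2 they were -0.13, -0.11 and -0.26, and without knock-in male tumour replicate 1 they were -0.07, -0.29 and -0.34. Znrf3, at 0.75 (SE 0.34, adjusted p 0.122), was called without knock-in male tumour replicate 2 (1.06, adjusted p 0.0299), and Lgr5 without knock-in male normal replicate 1 (2.10, adjusted p 0.0311).

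**Figure D2:**
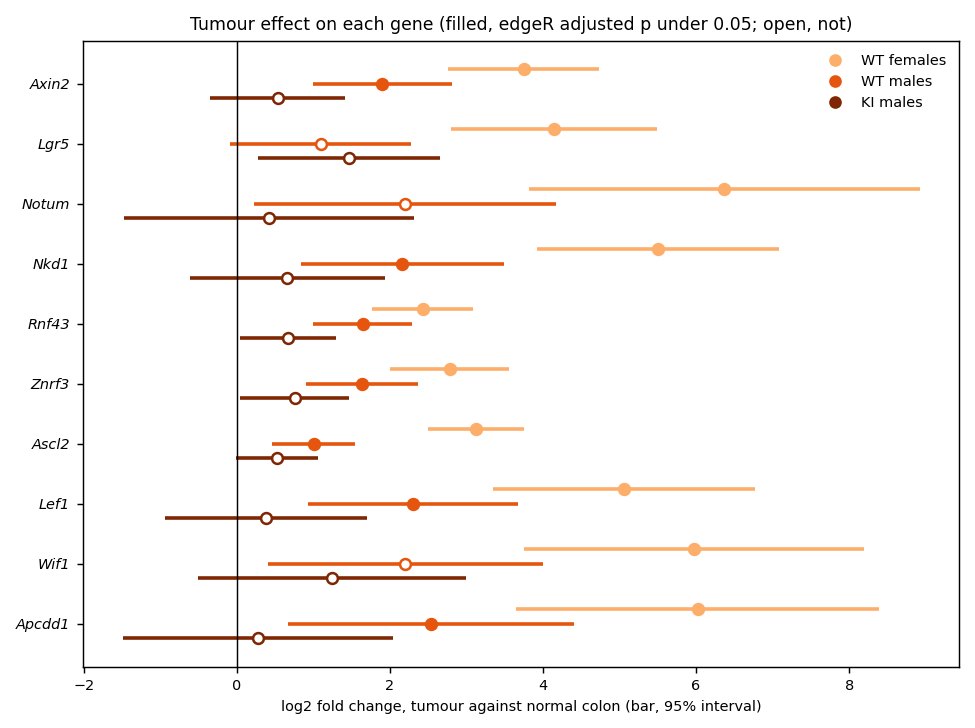
Log2 fold change of each gene between tumours and normal colon, with its 95% interval, in wild-type females, wild-type males and knock-in males, from 1 fit of all 21 libraries. The 10 estimates of wild-type females run from 2.43 to 6.37 and are all called, those of wild-type males from 1.00 to 2.54 with 7 called, and those of knock-in males from 0.27 to 1.47 with 0 called.

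The difference in tumour effect between the genotypes, knock-in minus wild-type, was tested directly in males. No gene of the 10 passed edgeR's test (0 of 10, with 3 at an unadjusted p under 0.05 and 0 by both DESeq2 and limma voom), and of all tested genes 1.14% were called with a difference above 0 and 0.37% with a difference below 0. With the replicate block, which gave each replicate number the same effect in all numbered groups, no gene of the whole table was called in either direction. The estimates were below 0 for 9 of the 10 genes, with Lgr5 as the exception. The values nearest the threshold were -0.98 for Rnf43 (SE 0.42, adjusted p 0.164) and -1.37 for Axin2 (SE 0.59, adjusted p 0.166), and for Axin2 the 95% interval reached from -2.61 to -0.12. Without knock-in male normal replicate 2, Axin2 (-1.79, adjusted p 0.0248) and Rnf43 (-1.33, adjusted p 0.0181) were called.

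The tumour effect on Ascl2 in wild-type mice was larger in females than in males by a log2 value of 2.12 (SE 0.39, adjusted p 0.0139). It was the 1 gene of the 10 called by edgeR, where 0.929% of all tested genes were called in this direction. All 10 estimates were above 0, with a median of 2.91 against 0.029 over all tested genes, and 9 had an unadjusted p under 0.05. DESeq2 called 5 of the genes and limma voom 6, whose shares of all genes are not given here. For Lgr5 the difference was 3.05 (SE 0.81, adjusted p 0.0792), and for Nkd1 3.35 (SE 0.89, adjusted p 0.0819). Without wild-type male normal replicate 3, 5 genes were called, Ascl2, Axin2, Lgr5, Nkd1 and Wif1. The Ascl2 call was lost without wild-type female normal replicate 1 (1.86, adjusted p 0.0613) and with a term for the 3 libraries of high running number in the labels (1.99, adjusted p 0.0622). These 3 libraries are all tumours, wild-type female replicates 2 and 3 and knock-in male replicate 3. The term therefore overlaps with the wild-type female tumour group and cannot be separated well from it.

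In wild-type normal colon all 10 genes were lower in females than in males, where 10.2% of all tested genes were called lower and 5.74% higher. The median log2 fold change was -2.83, against -0.0040 over all tested genes, and 9 of the 10 did not overlap, as held for 17.4% of all genes. Apcdd1 had the largest difference, -5.04 (SE 1.08, adjusted p 0.00671), followed by Notum with -4.63 (SE 1.14, adjusted p 0.0142), Wif1 with -4.02 (SE 0.97, adjusted p 0.0128) and Nkd1 with -3.85 (SE 0.70, adjusted p 0.00218). Axin2 was lower by 5.45-fold (log2 -2.45, SE 0.44, adjusted p 0.00199) and Ascl2 by 4.80-fold (log2 -2.26, SE 0.29, adjusted p 9.00e-05). Lgr5, at -1.85 (SE 0.59, adjusted p 0.0459), was the gene whose libraries overlapped. The Lgr5 call was lost in 4 of the 12 alternatives, with no filter, in the compared groups alone, with the replicate block and with this block and offsets for GC content and length (adjusted p 0.0668 to 0.0878). It was also lost without wild-type male normal replicate 1 (-1.91, adjusted p 0.0984) or 2 (-1.23, adjusted p 0.205), or without wild-type female normal replicate 3 (-1.73, adjusted p 0.105). Rnf43 lost its call without wild-type male normal replicate 1 or 2 or female normal replicate 1 (adjusted p 0.0577 to 0.0640), and Lef1 without male normal replicate 1 or female normal replicate 1 (adjusted p 0.0546 and 0.0637). The count of called genes was 10 without wild-type male normal replicate 3 and 5 without wild-type female normal replicate 2, where Lgr5, Notum, Rnf43, Lef1 and Wif1 were lost (adjusted p 0.0658 to 0.168). On the first principal component, male normal replicate 3 lay at -69.1, near the wild-type female normal libraries, and male replicates 1 and 2 at -17.3 and -3.39. What set the male libraries apart was not tested.

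In knock-in normal colon the 10 genes were also lower in females, with a median log2 fold change of -2.44 against -0.0051 over all tested genes. Only Axin2 passed edgeR's test, at -2.21 (SE 0.44, adjusted p 0.0498), where 0.402% of all tested genes were called lower. All 10 had an unadjusted p under 0.05, and 9 of the 10 did not overlap, as held for 9.7% of all genes. DESeq2 called 8 and limma voom 9, and their shares of all genes are not given here. The edgeR count was 9 without knock-in male normal replicate 2 and 0 without any 1 of the other 5 libraries, so it rests on single libraries.

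In wild-type tumours 0 of the 10 genes were called between the sexes in edgeR's test (1 at an unadjusted p under 0.05, 0 by DESeq2 and 2 by limma voom), where 0.402% of all tested genes were called higher and 0.458% lower. Lgr5 was the gene nearest to a call, higher in females by 1.20 (SE 0.55, adjusted p 0.230), and its libraries did not overlap, as held for 16% of all genes in that direction. Axin2, Nkd1, Rnf43, Znrf3, Notum and Apcdd1, 6 genes, were lower in females without overlap, as held for 15.3% of all genes. Lgr5 was called by limma voom (1.31, adjusted p 0.0153) and in a fit of the compared groups alone (1.19, adjusted p 0.0269), in which 7 of the 10 genes were called. The shares of all genes called in these fits are not given here. The 7 therefore cannot be set against the 0.402% and 0.458% of the fit of all 21 libraries. Relative to Axin2 in the same library, Lgr5 raw counts were 0.342 to 0.405 in wild-type female tumours and 0.081 to 0.149 in wild-type male tumours. Apcdd1 raw counts relative to Axin2 were 0.298 to 0.485 in wild-type female tumours and 0.697 to 0.775 in wild-type male tumours, the opposite order. These ratios were picked after the values were seen and are descriptions.

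**Figure D3:**
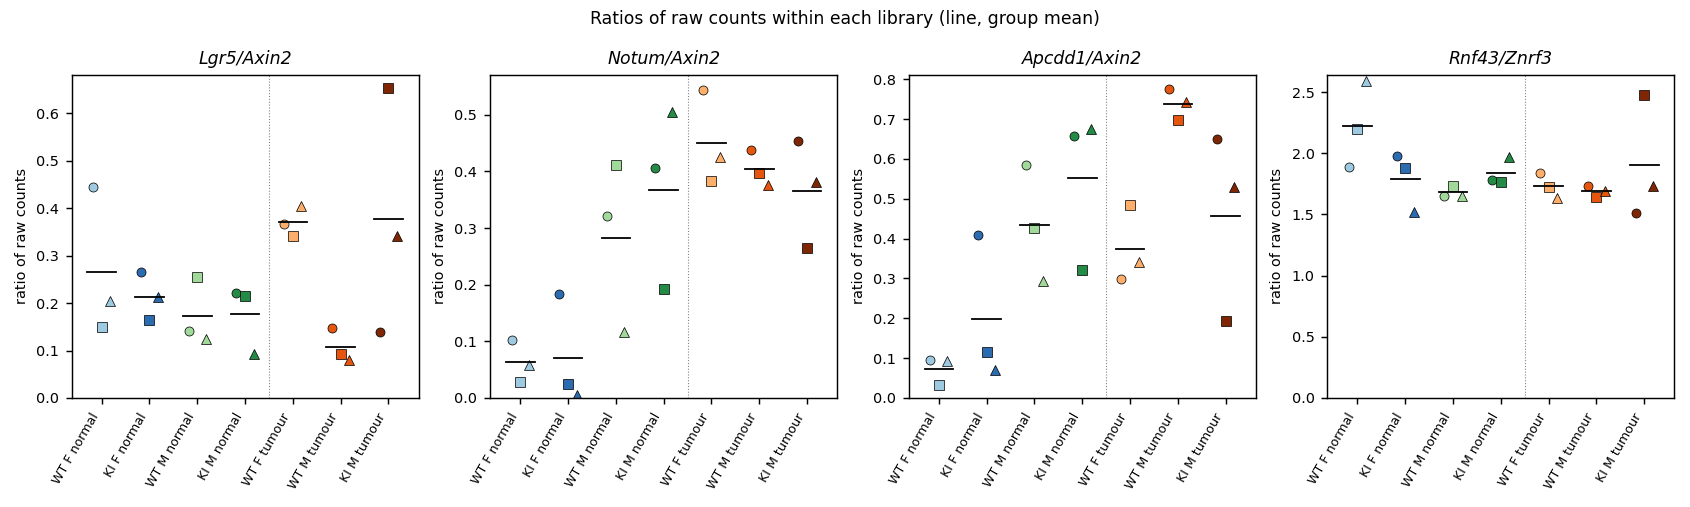
Ratio of the raw counts of a pair of genes within each library, by group, with a line at the group mean. Lgr5 to Axin2 lies at 0.342 to 0.405 in wild-type female tumours and at 0.081 to 0.149 in wild-type male tumours, and Rnf43 to Znrf3 stays between 1.51 and 2.59 in all libraries.

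Knock-in and wild-type tumours were compared in males. In edgeR's test 0 of the 10 genes were called (2 at an unadjusted p under 0.05, 0 by DESeq2). This test called 5.23% of all tested genes lower in knock-in tumours and 9.3% higher. Limma voom called 5 of the 10 lower, Axin2, Rnf43, Znrf3, Lef1 and Apcdd1. Its share of all genes is not given here, so this 5 cannot be set against the edgeR shares. The median log2 fold change was -0.82, against 0.053 over all tested genes. For 7 genes, Axin2, Nkd1, Rnf43, Znrf3, Notum, Lef1 and Apcdd1, each knock-in tumour lay below each wild-type tumour, as held for 16.1% of all genes in this direction and 20.3% in the other. Axin2 was at -0.95 (SE 0.42, adjusted p 0.126), with a 95% interval from -1.84 to -0.07, and Lgr5 at 0.58 (SE 0.55, adjusted p 0.482). Without knock-in male tumour replicate 2 the Axin2 estimate was -0.69 (adjusted p 0.357) and that of Lef1 -0.89 (adjusted p 0.404), from -1.29 (SE 0.62, adjusted p 0.164) with it. This library had the lowest value of its group for 8 of the 10 genes but 122 CPM of Lgr5, and a ratio of Lgr5 to Axin2 of 0.653, the highest of the 21 libraries.

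In normal colon of males, 0 of the 10 genes were called between the genotypes in edgeR's test, where 0.00628% of all tested genes were called in each direction. None had an unadjusted p under 0.05, DESeq2 and limma voom called 0, and the median log2 fold change was 0.36, against 0.00059 over all tested genes. The libraries overlapped for all 10 genes, while 3.75% of all tested genes were higher and 3.33% lower without overlap. In normal colon of females Ascl2 was higher in the knock-in by 1.41 (SE 0.30, adjusted p 0.00440), at 5.54, 8.21 and 6.35 CPM. It was the 1 gene of the 10 that was called, where 8.97% of all tested genes were called higher. All 10 estimates were above 0, with a median of 0.82 against 0.015, and 6 of the 10 did not overlap, as held for 19.6% of all genes. The Ascl2 estimate was between 1.14 and 1.58 without each of the 6 libraries in turn and was called each time. In the same comparison 3 of 8 smooth muscle, 3 of 8 fibroblast and 3 of 4 endothelial markers were also higher in the knock-in, and the smooth muscle sum was 6879 to 9723 CPM, against 1984 to 4593 CPM in wild-type females. The part of these markers in the Ascl2 result was not tested. No difference in the genotype effect between the sexes was called in normal colon for the 10 genes in edgeR's test (0 called, 1 at an unadjusted p under 0.05, 1 each by DESeq2 and limma voom), where 1.76% of all tested genes were called higher.

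Markers of other cell types moved with these comparisons. The summed level of 8 smooth muscle markers was 2862 to 9729 CPM in wild-type male normal colon and 192 to 754 CPM in wild-type male tumours, and it was 1984 to 4593 and 176 to 212 CPM in wild-type females. In knock-in males it was 4569 to 8287 CPM in normal colon and 888 to 1006 CPM in tumours, above each wild-type tumour. All 8 smooth muscle markers were lower in each of the 3 tumour comparisons, none was at 0 in any group, and their part in the results on the Wnt genes was not tested. In bulk tissue, fewer cells of a type and less RNA per cell cannot be told apart. The summed level of 8 fibroblast markers was 1199 to 1437 CPM in wild-type female normal colon and 1811 to 4203 CPM in the other groups, and the 4 endothelial markers were 63.1 to 91.1 CPM there, below the other groups. Epithelial markers were lower in wild-type tumours, with 6 of 8 lower and 1 higher in males and 7 of 8 lower and 1 higher in females. Their sum was 8036 to 10625 CPM in normal colon and 6971 to 7400 CPM in tumours of wild-type males, and 10266 to 11022 and 5900 to 7147 CPM in wild-type females. In knock-in male tumours 0 of the 8 were lower and 1 was higher, and between the sexes in wild-type normal colon 0 were called in either direction. Between those sexes 4 of 4 endothelial, 4 of 8 fibroblast and 2 of 8 smooth muscle markers were lower in females, and 0 of these were higher. The part of these markers in the sex difference of the Wnt genes was not tested. When counts were scaled to the epithelial sum, an analysis added after the data were seen, the numbers of called genes were 8 for wild-type male tumours, 0 for knock-in male tumours, 10 for wild-type female tumours and 10 for the sexes in wild-type normal colon. The shares of all genes called under this scaling are not given here.

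**Figure D4:**
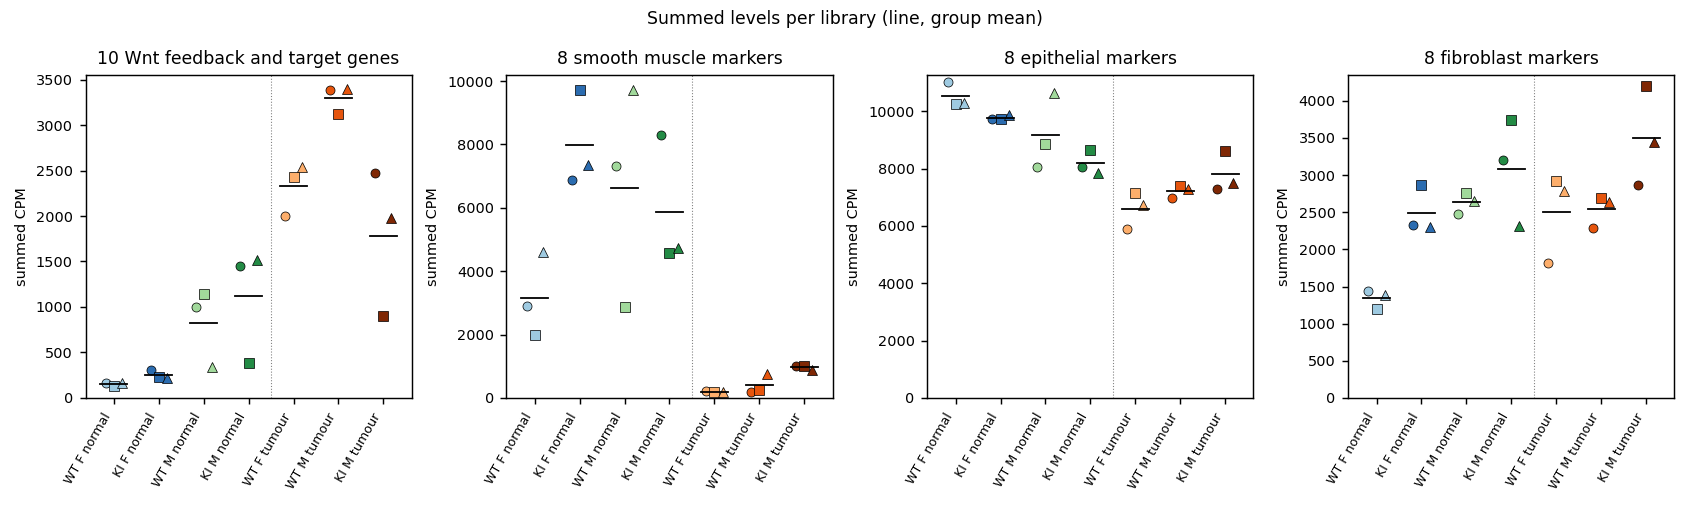
Summed CPM of the 10 Wnt genes and of 8 smooth muscle, 8 epithelial and 8 fibroblast markers in each library, by group, with a line at the group mean. The Wnt genes sum to 129 to 168 CPM in wild-type female normal colon and to 3118 to 3392 CPM in wild-type male tumours, and smooth muscle markers lie at 176 to 1006 CPM in the tumour groups and at 1984 CPM or more in normal colon.

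Of 16 other Wnt target genes, 10 were higher and 2 lower in wild-type male tumours, 13 higher and 1 lower in wild-type female tumours, and 4 higher and 2 lower in knock-in male tumours. Their median log2 fold changes were 1.11, 2.004 and 0.69. Over all tested genes the medians were 0.0054, 0.0081 and 0.0066, and 16.5%, 25% and 10.4% were called higher and 19.3%, 24% and 9.97% lower. Sp5, a transcription factor induced by the pathway, rose by 2.40 (SE 0.78, adjusted p 0.0269) in wild-type males and by 6.66 (SE 1.11, adjusted p 0.000160) in wild-type females. In wild-type females Sp5 was near the floor in normal colon, at 0.279 to 0.929 CPM, and at 55.7 to 63.3 CPM in tumours. A count of 3 corresponded to 0.127 to 0.465 CPM in these normal libraries. Its call in wild-type males was lost in the compared groups alone (adjusted p 0.0617) and without normal replicate 1 or 3 or tumour replicate 1 or 3 (adjusted p 0.0515 to 0.0798). Mmp7, a matrix protease of intestinal tumours, rose by 7.39 (SE 1.17, adjusted p 0.000109) in wild-type females. Its libraries there ranged between 0.619 and 3.13 CPM in normal colon and between 334 and 385 CPM in tumours. Nkd2 went the other way, at -1.70 (SE 0.47, adjusted p 0.00932) in wild-type males and -1.39 (SE 0.45, adjusted p 0.0366) in knock-in males. The knock-in call of Nkd2 held in 7 of 12 alternatives and in 1 of the 6 fits without a library. Cdx1, a transcription factor of intestinal epithelium, fell by 1.60 (SE 0.18, adjusted p 8.99e-06) in wild-type males, and also in the other 2 tumour comparisons, except in knock-in males with offsets for GC content and length (adjusted p 0.0542). In knock-in males Cd44, a surface receptor, rose by 1.42 (SE 0.32, adjusted p 0.00700) and Fosl1, an AP-1 factor, by 2.13 (SE 0.61, adjusted p 0.0212). Fosl1 was near the floor in knock-in male normal colon, at 0.190 to 0.654 CPM, and at 1.02 to 2.25 CPM in the tumours. The Fosl1 call was lost in the compared groups alone (adjusted p 0.0691) and without normal replicate 2 or 3 or tumour replicate 2 or 3 (adjusted p 0.0590 to 0.0873). In wild-type normal colon 12 of these 16 were lower in females than in males and 0 higher, where 10.2% of all tested genes were called lower and 5.74% higher. Sp5, near the floor in the female libraries, was lower there by a log2 value of -4.58 (SE 1.11, adjusted p 0.0128), which was not called without female normal replicate 1 or 2 (adjusted p 0.0699 and 0.0612).

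In knock-in against wild-type male tumours, 2 of the 16 were higher and 1 lower, shares near the 9.3% and 5.23% called among all tested genes. Myc, a growth regulator, was lower at -0.97 (SE 0.29, adjusted p 0.0343), with 51.3 to 65.3 CPM in knock-in and 98.0 to 126 CPM in wild-type tumours, and Cdx1 was higher by 0.71 (SE 0.18, adjusted p 0.0192). The Myc call held in 8 of 12 alternatives and in 1 of the 6 fits without a library (the one without knock-in male tumour replicate 1), and that of Cdx1 in 12 of 12 alternatives but not without wild-type male tumour replicate 1 or 2 or knock-in male tumour replicate 2 (adjusted p 0.0567 to 0.105). For Ephb3, a receptor of the crypt, the tumour effect in wild-type females exceeded that in males by 1.12 (SE 0.18, adjusted p 0.00935), in the same direction as that of Ascl2. It was the 1 gene of the 16 called there, beside 0.929% of all tested genes in this direction. Ephb3 was at 37.6 to 48.6 CPM in female and 82.2 to 91.0 CPM in male normal colon. In tumours it was at 91.9 to 102 CPM in females and 85.3 to 92.8 CPM in males.

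Of 34 genes of the signalling machinery, 10 were higher and 8 lower in wild-type male tumours, 17 higher and 6 lower in wild-type female tumours, and 7 higher and 3 lower in knock-in male tumours. Of all tested genes 16.5%, 25% and 10.4% were called higher and 19.3%, 24% and 9.97% lower in these comparisons. Their median log2 fold changes were 0.20, 0.42 and 0.04, beside 2.03, 4.60 and 0.60 for the 10 feedback and target genes. The R-spondin receptor Lgr6 rose by 2.06 (SE 0.66, adjusted p 0.0232) in wild-type males and by 5.69 (SE 0.89, adjusted p 7.71e-05) in wild-type females, and the receptor Fzd10 by 2.47 (SE 0.71, adjusted p 0.0126) and 3.64 (SE 0.87, adjusted p 0.00239). In wild-type female normal colon both were near the floor, Lgr6 at 0.139 to 0.719 CPM and Fzd10 at 0.310 to 0.761 CPM. A count of 3 corresponded to 0.127 to 0.465 CPM there. The Lgr6 call in wild-type males was lost without normal replicate 1 or 3 or tumour replicate 1 or 3 (adjusted p 0.0502 to 0.0946). Tcf7l1, a TCF family repressor, was lower in all 3 tumour comparisons, at -1.85 (SE 0.33, adjusted p 0.000466) in wild-type males and -1.33 (SE 0.32, adjusted p 0.00939) in knock-in males. The receptor Lgr4 was at 311 to 504 CPM in wild-type male normal colon and 168 to 206 CPM in tumours, and at 267 to 386 and 260 to 326 CPM in knock-in males. In the difference in tumour effect between the genotypes (knock-in minus wild-type), 1 of the 34 was called above 0 and 2 below, beside 1.14% and 0.37% of all tested genes. These were Lgr4 at 1.02 (SE 0.24, adjusted p 0.0465) and Dvl2 and Dvl3, Dishevelled proteins that relay the signal, at -1.10 (SE 0.27, adjusted p 0.0474) and -0.89 (SE 0.17, adjusted p 0.0406). Of 12 alternatives, 5 called Lgr4, 4 called Dvl2 and 6 called Dvl3. All 3 calls were lost with the replicate block (adjusted p 0.0725, 0.0759 and 0.0548), in the compared groups alone, with the covariate for late library numbers, with offsets for GC content and length and with epithelial scaling. All 3 were also lost without wild-type male normal replicate 3, any 1 of the wild-type male tumours, knock-in male normal replicate 1 or 3, or knock-in male tumour replicate 2 (adjusted p 0.0755 to 0.143).

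The genes with the profile most like each of the 10 were sought among 11910 other tested genes with a mean of at least 50 counts. The 10 genes themselves and predicted, ribosomal and mitochondrial symbols were left out of this search. Likeness was the root mean square difference of centred log2 CPM over the 21 libraries. Fgfrl1 was nearest to Axin2, with a difference of 0.21, where Axin2 itself had an SD of 1.59 over the libraries. Mex3d was nearest to Rnf43 (0.21), Tbx3 to Nkd1 (0.24) and Dach1 to Znrf3 (0.24), though Rnf43 and Znrf3 were nearer to each other (0.20). Lef1 was nearest to Jakmip3 (0.32), followed by the ligand gene Wnt6 (0.34), and Apcdd1 to the ligand gene Wnt10a (0.62). Wif1 was nearest to Prox1 (0.47), a gene of the list of other targets, and Notum to Spock2 (0.51), with Sp5 as the last of the 3 nearest genes for both. Lgr5 had Vwa2 (0.50) and Ascl2 had Tulp3 (0.34) as the nearest gene. The likeness was measured over all 21 libraries together, not in a single comparison, and it was not tested.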

How the data were processed

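RNA of mouse colon, depleted of ribosomal RNA and copied with random hexamers, was sequenced in 21 libraries, per the labels' protocols. The authors deposited raw counts per gene, and Trimmomatic, HISAT2, featureCounts and the build mm10 are named in the submitters' processing notes, without versions or a strand setting. In the deposited counts, 2 columns of knock-in female normal colon share a header and were used as unnumbered replicates a and b. A deposited DESeq2 table was not used here.

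The counts were tested with edgeR 4.0.16 (R 4.3.3) by its quasi-likelihood F test, two-sided, after TMM scaling and the filterByExpr filter, with robust fitting, 1 coefficient per group and all 21 libraries in 1 fit. P-values were adjusted by Benjamini-Hochberg over 15936 genes, with a threshold of 0.05, for 9 comparisons of groups and 3 differences between effects. DESeq2 1.42.0 and limma voom (limma 3.58.1) were alternatives, besides other scalings, filters, covariates and the omission of each library, which were applied to the other named pathway genes after the data were seen. Replicates differed beyond counting noise (chi-square per degree of freedom 6.60 to 63.4).

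The genes, the lists of other targets, machinery and cell markers, and the tests were chosen with earlier results of these data known. Named besides the 10 genes are, per list and comparison, genes among the 2 called ones of largest change in each direction, and the genes of nearest profile. Positions are from GENCODE vM21 (GRCm38), and promoter windows from RefSeq. Same-numbered wild-type male normal and tumour libraries deviated together over all genes (correlations 0.17 to 0.21 in the 3 pairs), and in no other comparison with 3 numbered pairs did every pair. Counts were also simulated for the wild-type male tumour comparison, with 15747 genes in the step. All groups had the same means, except that 200 genes drawn at random, without those of low count, were changed in wild-type male tumours. Of genes changed by 2 log2 units edgeR recovered 91.2%, and of those changed by 1 it recovered 66.3%, with 7 false calls. Far more genes differed in the real comparison, so these shares do not give the power for the 10 genes.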

Additional observations from a re-analysis of the deposited data

Results flagged for a closer look

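Ascl2 differed in its tumour effect between the sexes of wild-type mice by a log2 value of 2.12 (SE 0.39, edgeR adjusted p 0.0139 for the difference itself), with a tumour effect of 3.12 in females and 1.00 in males. Its 3 tumour libraries overlapped between the sexes, at 21.2 to 22.3 CPM in females and 14.3 to 30.0 CPM in males, and its normal libraries did not, at 1.86 to 3.21 CPM in females and 11.5 to 12.6 CPM in males. The difference was above 0 for all 10 genes, and for the other 9 it was not past the threshold.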

How the results depend on the processing

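Counts of called genes are given in this section out of 10, without the share of all genes called in the same setting. The calls over all genes also differed between settings, so a higher count need not be particular to the 10 genes. In wild-type male tumours limma voom called 3633 of all genes higher and 3609 lower, where the main fit called 2622 and 3075. Wild-type female tumours (10) and wild-type male tumours (7) kept their count within 1.5 times in all 12 alternatives. For knock-in male tumours DESeq2 gave 1, offsets for GC content and length 2, and these with the replicate block 1. For genotype in male tumours limma voom gave 5. A fit of the compared groups alone gave 4 for genotype in female normal colon and 7 for sex in tumours, where limma voom gave 2. For sex in knock-in normal colon, DESeq2 size factors, library totals, no filter, the compared groups alone and the covariate for late library numbers gave 0, DESeq2 gave 8, limma voom 9 and epithelial scaling 6. For the sex difference in tumour effect DESeq2 gave 5, limma voom 6, the covariate 0 and epithelial scaling 3. For the genotype difference between sexes DESeq2 and limma voom gave 1 each. The causes were not tested.

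Leaving out single libraries gave 4 to 8 for wild-type male tumours, 0 to 1 for knock-in male tumours, 5 to 10 for sex in wild-type and 0 to 9 in knock-in normal colon, 0 to 2 for the genotype and 0 to 5 for the sex difference in tumour effect. The knock-in male tumour estimates ranged from -0.13 to 0.94 for Notum, -0.29 to 1.05 for Lef1 and -0.34 to 0.72 for Apcdd1, and limma voom gave -0.19 for Apcdd1. The genotype difference of Lgr5 ranged from -0.29, without wild-type male normal replicate 2, to 1.03.

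With the replicate block, fitted on the 18 numbered libraries, the counts were 7 for wild-type male, 0 for knock-in male and 10 for wild-type female tumours, 0 for genotype in male tumours and in male normal colon, 0 and 9 for sex in tumours and normal colon, and 0 and 1 for the genotype and sex differences in tumour effect. It changed no count of the 10 genes by over 1.5 times, though Lgr5 in wild-type normal colon lost its call between the sexes (adjusted p 0.0736). Comparisons with knock-in female normal colon could not be blocked. Epithelial scaling moved the median log2 fold change of all genes to 0.33 and 0.69 in wild-type male and female tumours and to -0.22 between the sexes in wild-type normal colon. Library totals moved it to 0.15 in wild-type female tumours.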
